A study of Mus musculus with 5 samples.

Results

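NKX2-1 binding at the ends of single protein-coding genes was examined in chromatin of whole wild-type mouse lungs taken on postnatal day 10, as mapped by chromatin immunoprecipitation and sequencing (ChIP-seq). The peak lists of 4 antibodies against NKX2-1 (Abcam133737, Millipore07-601, Abcam76013 and Abcam133638) were merged wherever peaks overlapped by at least 1 bp, which gave 68919 regions. Of these, 31606 held a peak of all 4 antibodies. A region was kept where its summit, taken from the peak with the highest pileup, lay within 1 kb of the start or end coordinate of exactly 1 protein-coding gene (RefSeq annotation of GRCm38.p6, the assembly known as mm10). This left 5945 regions, 18.8% of the four-antibody regions (95% interval 18.4 to 19.2). The other four-antibody regions comprised 1158 near ends of several genes, 14901 further inside genes and 9602 outside genes.

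The labels give 1 genotype, wild type, and name no treatment beyond anaesthesia. Each antibody was represented by 1 library, all were called against 1 input library, and per the labels' protocol the sonicated chromatin was pooled before use. The likeness of the libraries is therefore that of repeated precipitations which may come from the same material, and no value below has a replicate error or a test between antibodies. Whole lung mixes epithelial, endothelial, mesenchymal and immune nuclei, so that weak binding in many cells and strong binding in few cells cannot be told apart. The libraries held 43031331 to 46547989 tags after removal of duplicates, and the input held 10653749. The regions were chosen by the presence of peaks in all 4 lists and by the pileup that sets the summit, so their fold enrichment is given as a description. Intervals are exact (Clopper-Pearson, 95%) and cover counting error only.

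NKX2-1 is a homeodomain protein that binds DNA through a short NKX2 motif and is required for the formation of lung, thyroid and part of the forebrain. In the mature lung it is present in the alveolar epithelium, in flat alveolar type 1 (AT1) cells that line the gas exchange surface and in cuboidal alveolar type 2 (AT2) cells that secrete surfactant. A region at the start of a gene covers its promoter, where RNA polymerase II is loaded, whereas regions far from gene starts are commonly taken for enhancers.

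The sequences around the summits of 10 of these regions are shown. They were drawn from regions at starts among the 10 highest regions and the highest of each gene list or family. Those with the highest fold were taken whose summit falls inside the 300-base RefSeq promoter window (GRCm38.p6), upstream of the start. Genes named for other reasons, such as Csf2, were not drawn on. Each runs 5′ to 3′ on the strand of its gene and reaches up to 40 bases to either side of the summit, cut at the edge of the window for Psmd1. Capitals mark a match, on either strand, to an NKX2 word, which is CACTTGA, or the more frequent CACTCAA, or the third form CACTTAA.
Cxcl15, plus strand, chr5:90794360-90794440: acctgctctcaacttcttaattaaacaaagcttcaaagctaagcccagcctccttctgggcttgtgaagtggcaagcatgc
Sdhaf1, minus strand, chr7:30322500-30322580: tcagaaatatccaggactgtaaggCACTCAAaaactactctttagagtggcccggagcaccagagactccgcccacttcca
Psmd1, plus strand, chr1:86064369-86064419: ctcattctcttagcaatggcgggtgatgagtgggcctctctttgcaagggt
Nf2, minus strand, chr11:4849631-4849711: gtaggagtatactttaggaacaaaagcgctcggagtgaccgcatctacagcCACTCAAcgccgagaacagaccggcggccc
Zfp869, minus strand, chr8:69717036-69717116: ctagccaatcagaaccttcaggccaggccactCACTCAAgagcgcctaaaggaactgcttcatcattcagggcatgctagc
Cldn7, plus strand, chr11:69965313-69965393: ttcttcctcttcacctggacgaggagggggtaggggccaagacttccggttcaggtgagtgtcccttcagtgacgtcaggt
Amotl2, plus strand, chr9:102717657-102717737: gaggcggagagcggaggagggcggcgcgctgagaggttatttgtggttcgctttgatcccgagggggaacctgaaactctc
Sftpa1, plus strand, chr14:41131606-41131686: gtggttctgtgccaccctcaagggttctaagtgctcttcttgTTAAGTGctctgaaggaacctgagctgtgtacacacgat
Zfp120, minus strand, chr2:150136693-150136773: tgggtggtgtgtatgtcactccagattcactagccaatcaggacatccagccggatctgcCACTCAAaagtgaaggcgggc
Krt8, minus strand, chr15:102004351-102004431: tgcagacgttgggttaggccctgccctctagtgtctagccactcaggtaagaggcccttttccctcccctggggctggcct

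An NKX2 word stood near the summit in 5 of these 10 promoters. The centre of the match lay 5 bp from the summit in Sftpa1 and in Zfp869, 13 bp in Sdhaf1, 14 bp in Nf2 and 23 bp in Zfp120. The word was CACTCAA in Sdhaf1, Nf2, Zfp869 and Zfp120, and TTAAGTG, the other strand of CACTTAA, in Sftpa1. Cxcl15, the promoter with the highest fold of all, held none of the 3 words within its window.

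Bound promoters as a whole held these words about as often as all promoters, and more often than all promoters of their GC content. A promoter window was available for 17492 protein-coding genes, and 3862 of these genes had a region with its summit within 1 kb of the start; these are called bound promoters here. An NKX2 word was found in 313 of the 3862 bound promoters (8.10%, interval 7.26 to 9.01) and in 1443 of all 17492 promoters (8.25%, 7.85 to 8.67). At the GC content of the bound promoters, all promoters would hold one in 6.06%. Bound promoters whose own window contained the summit, 2514 in number, held a word in 9.63%.

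The share was higher at the strong end. A region is called strong here where the mean of its 4 fold enrichments is at least 10, a limit chosen after the values were seen. Strong regions with their summit in the window had an NKX2 word in 88 of 494 promoters (17.8%, 14.5 to 21.5), and weaker ones in 154 of 2020 (7.62%, 6.50 to 8.87). When the 2514 promoters were divided by increasing fold into 5 groups of 502 or 503, the shares were 6.56, 7.16, 8.57, 7.95 and 17.9%, so that the last group alone stood apart. GC content was nearly level over the same groups, with medians of 60.7, 60.7, 61.0, 61.7 and 60.3%. Of the 3 words, CACTCAA stood out, with 13.2% of the 494 strong promoters, 5.29% of the 2514 and 3.61% of all promoters. CACTTGA occurred in 2.23% of the strong promoters, 2.35% of the 2514 and 2.91% of all, and CACTTAA in 3.04, 2.43 and 2.11% of the same sets. The forkhead words TGTTTAC and TGTTTGC, motifs of the FOX factors, occurred in 6.68% of the strong promoters (4.64 to 9.25) and in 7.33% of all, or 5.81% of all at the GC content of the strong ones.

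Matches crowded at the summit. In strong promoters there were 2.50 NKX2 matches per kb within 25 bp of the summit, 0.787 at 25 to 50 bp, 0.298 at 50 to 100 bp, 0.202 at 100 to 150 bp and 0.243 at 150 to 300 bp. In weaker promoters the corresponding densities were 0.588, 0.383, 0.147, 0.139 and 0.247 per kb. The density was thus higher in strong promoters up to 150 bp, most of all within 25 bp, and the sets were alike at 150 to 300 bp. Forkhead matches were few. Strong promoters had 0.296 per kb within 25 bp (7 matches) and 0.104 at 150 to 300 bp (3 matches), and all 2514 promoters had 0.141 and 0.198 per kb. Over all 2514 promoters, NKX2 matches had 0.962 per kb within 25 bp and 0.246 per kb at 150 to 300 bp. CCAAT, the core of the NF-Y motif, fell off more slowly there, from 3.71 to 1.68 per kb. GGGCGG, the GC box bound by SP and KLF factors, had 6.90 and 3.41 per kb. CCGGAAG, a word of ETS factors, had 1.29 and 0.410, and TGACGTCA, a word of CREB and ATF, 0.236 and 0.0765. In the weaker promoters alone the falls were alike. NKX2 had 0.588 and 0.247 per kb, CCAAT 3.70 and 1.62, and GGGCGG 6.96 and 3.07. Crowding at the summit was thus not particular to NKX2 words.

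**Figure D1:**
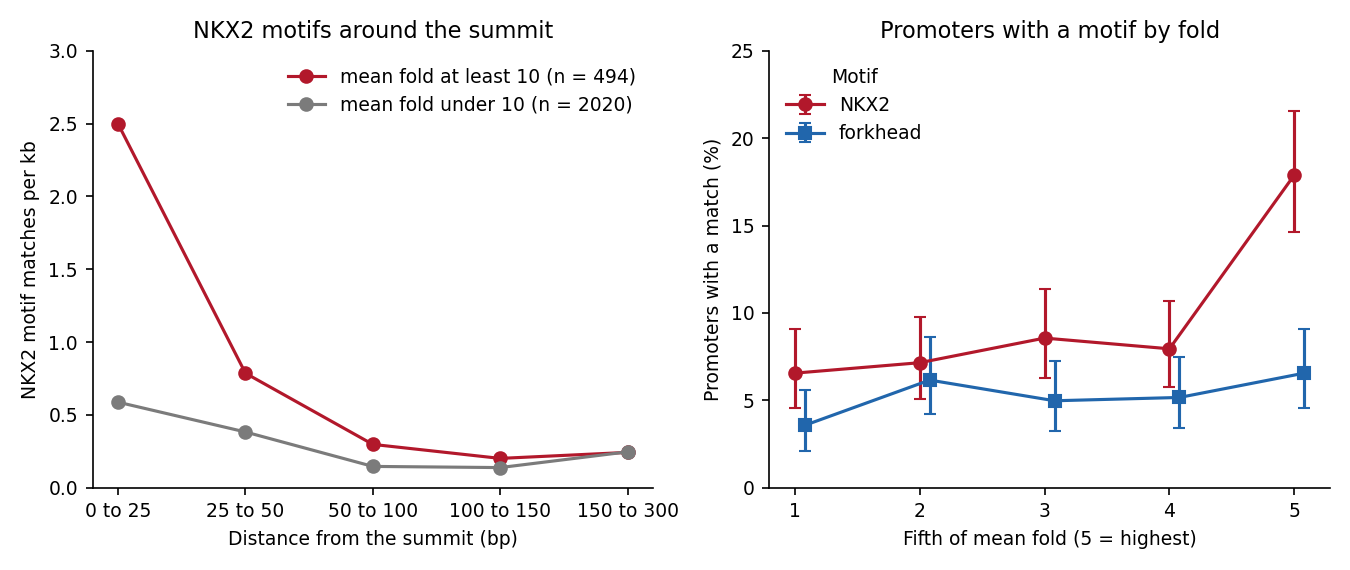
Left, NKX2 word matches per kb (vertical axis) against distance from the summit in bp (horizontal axis) in strong promoters (red) and in weaker ones (grey). Right, percent of promoters with an NKX2 word (red) or a forkhead word (blue) in 5 groups of increasing mean fold, with exact 95% intervals. NKX2 matches reached 2.50 per kb at strong summits, and the group with the highest fold stood apart at 17.9%.

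A count of all words of 6 bases, made without reference to any motif and added after the data were seen, led to the same letters. Words with at least 40 occurrences within 25 bp of a summit were ranked by their density there over their density at 50 to 150 bp. Among 1078 such words (each taken with its reverse complement), ACTCAA was first with a ratio of 4.36, followed by CACTCA with 4.26, CCACTC with 3.29 and CTCAAG with 2.92. These 4 overlap one another, each shifted by 1 base along a stretch that contains the NKX2 word CACTCAA. In strong promoters, where 330 words with at least 20 occurrences near the summit were ranked, ACTCAA had 7.85 and CACTCA 7.25, again the highest values.

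The bound promoters were mostly of the CpG-rich kind. The ratio of observed to expected CpG dinucleotides was at least 0.6 in 76.0% of bound promoters (74.6 to 77.3), against 40.6% of promoters without such a region (39.8 to 41.4). Median GC content was 61.3% in bound promoters and 54.3% in those without a region. Read the other way, 2935 of 8466 CpG-rich promoters had a region (34.7%, 33.7 to 35.7), against 927 of 9026 CpG-poor promoters (10.3%, 9.65 to 10.9). Motifs typical of CpG-rich promoters followed. The GC box was present in 69.1% of bound and 46.3% of all promoters (61.8% at the same GC content), and the ETS word CCGGAAG in 19.2% and 11.9% (15.2%). The NRF1 motif was present in 10.6% and 6.66% (9.03%). TATAAA, the TATA box, was present in 6.29% of bound promoters and 13.3% of all (7.35% at the same GC content).

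Within each CpG class, promoters with an NKX2 word were bound more often, and their regions were more often strong. Among CpG-rich promoters, a region was found at 179 of 393 with an NKX2 word (45.5%, 40.5 to 50.6) and at 2756 of 8073 without one (34.1%, 33.1 to 35.2). Among CpG-poor promoters the shares were 134 of 1050 with a word (12.8%, 10.8 to 14.9) and 793 of 7976 without (9.94%, 9.29 to 10.6). Where a CpG-rich promoter had a region, it was strong in 31.8% of promoters with a word (25.1 to 39.2) and in 18.5% of those without (17.1 to 20.0). In CpG-poor promoters it was strong in 36.6% with a word (28.4 to 45.3) and in 19.9% without (17.2 to 22.9). CpG content itself made little difference to strength, since regions were strong in 19.4% of bound CpG-rich promoters and in 22.3% of bound CpG-poor ones.

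The regions lay predominantly at transcription starts. The direction of transcription was known for 4831 of the 5945 regions, and for 4331 of these the nearer end was the start of the gene (89.7%, 88.8 to 90.5), whereas 500 lay nearer the transcription end. The gene of the other 1114 had no strand in the tables used. The rule did not choose between the ends. Regions at a single gene that were called with 3, 2 or 1 antibodies had nearly as high a share at the start, 89.1, 87.1 and 86.6%. Strong regions were at the start in 85.7% of cases (83.3 to 87.8) and weaker ones in 90.6% (89.7 to 91.5). The stop-side fraction was thus larger among strong regions.

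At starts the summits formed a narrow peak just before the gene. The median summit lay 28 bp before the transcription start (quartiles −113 and 125.5 bp), 45.7% of the 4331 summits lay within 100 bp and 67.3% within 250 bp, and 58.3% lay upstream. Summits at transcription ends had no such peak. Their median was 99 bp beyond the end of the gene (quartiles −491 and 556.75 bp), with 25 of 500 within 100 bp (5.00%) and 100 of 500 within 250 bp (20.0%). An annotated start of any gene, coding or not and the same gene included, lay within 1 kb of 21 of these 500 summits. The rule allows an end of only 1 protein-coding gene within 1 kb, and the starts of some genes were not available. Both limit that count. Strong regions made up 25.0, 24.2 and 25.4% of those at 1000 to 500, 500 to 250 and 250 to 100 bp before the start. They made up 17.4% of those in the last 100 bp before it and 17.3, 17.1, 12.8 and 18.3% at 0 to 100, 100 to 250, 250 to 500 and 500 to 1000 bp after it. The densest place for summits, around the start itself, was therefore not where the strong regions were most frequent. At transcription ends 27.8% were strong (23.9 to 32.0), close to the 28.5% of four-antibody regions more than 1 kb from gene ends (27.9 to 29.1).

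**Figure D2:**
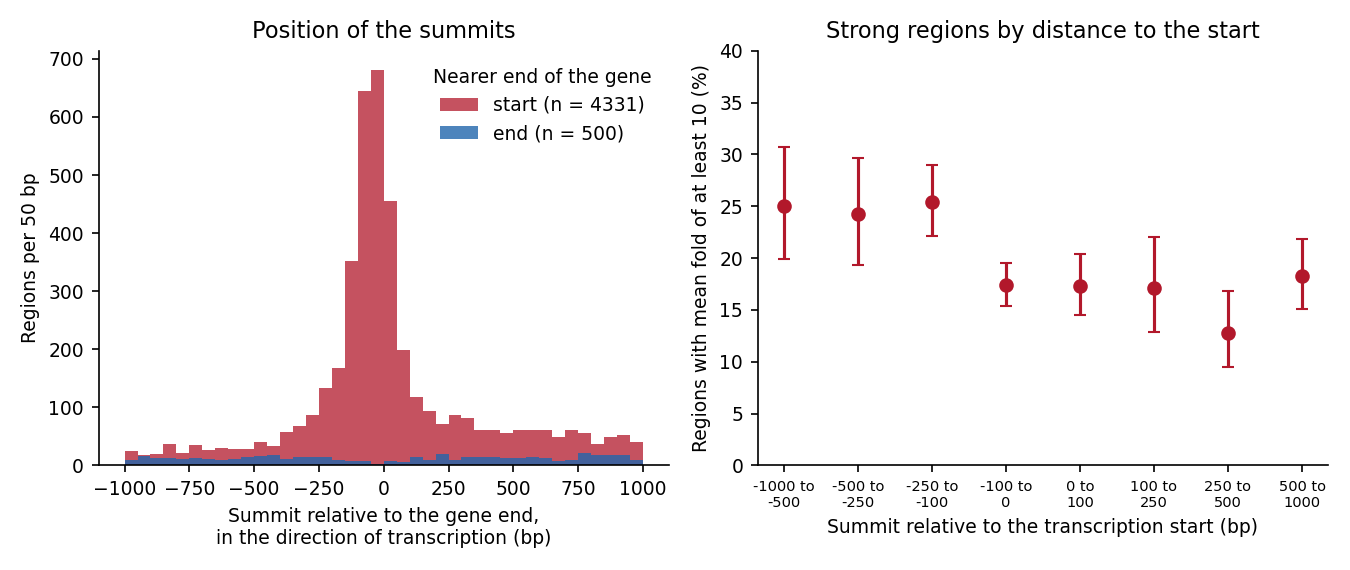
Left, number of regions per 50 bp (vertical axis) by position of the summit relative to the nearer gene end in bp, in the direction of transcription (horizontal axis), for 4331 regions at starts (red) and 500 at ends (blue). Right, percent of regions at starts with a mean fold of at least 10, by distance from the start, with exact 95% intervals. Summits at starts centred 28 bp upstream, and strong regions made up 25.4% at 250 to 100 bp before the start and 12.8% at 250 to 500 bp after it.

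The regions were slightly weaker and longer than the other four-antibody regions. Their median fold enrichment over the local background, as the authors' peak caller gave it, was 5.76 in Abcam133737, 7.61 in Millipore07-601, 5.68 in Abcam76013 and 8.19 in Abcam133638. The other 25661 four-antibody regions had medians of 6.12, 8.73, 6.09 and 8.28 in the same libraries. All 4 libraries thus gave the lower median at single-gene ends, most of all Millipore07-601 and least of all Abcam133638. Strong regions numbered 1164 of 5945 (19.6%, 18.6 to 20.6) at single-gene ends and 7233 of 25661 elsewhere (28.2%, 27.6 to 28.7). Single-gene ends supplied 290 of the 3161 regions (9.17%) in the tenth of four-antibody regions with the highest fold, although they made up 18.8% of all. The highest mean fold was 41.3 at single-gene ends and 51.0 further inside genes. Median length was 472 bp at single-gene ends and 397 bp elsewhere, and more than 4 peaks had been merged in 14.4% of the regions, against 6.58% further inside genes and 6.13% outside genes. Regions near ends of several genes were longer still, with a median of 505 bp and 17.9% with more than 4 peaks. The 4 summits of a region lay within a median span of 54 bp, and within 100 bp of one another in 78.2%.

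**Figure D3:**
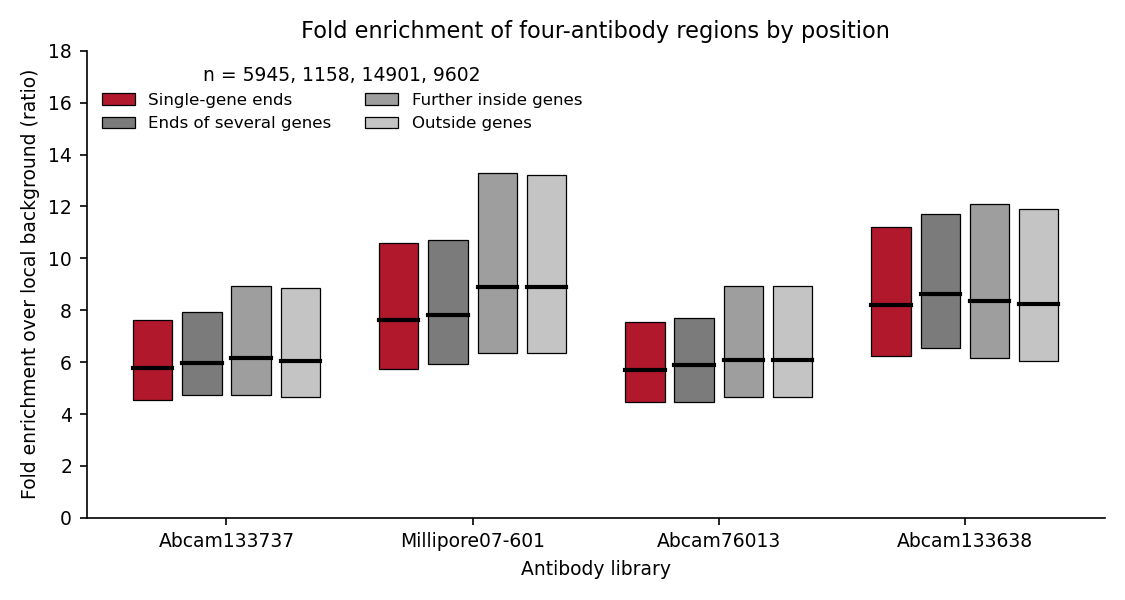
Fold enrichment over local background (ratio, vertical axis) in the 4 antibody libraries (horizontal axis) for four-antibody regions at single-gene ends (red), at ends of several genes, further inside genes and outside genes (greys). Boxes span the quartiles and black lines are medians, and the Millipore07-601 median was 7.61 at single-gene ends and 8.88 further inside genes.

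The balance between the antibodies shifted with position. Pileup divided by the number of filtered tags, in Abcam133638 over Millipore07-601, had a median of 1.02 at single-gene ends and 0.882 in the other four-antibody regions. Abcam133638 gave the higher value in 52.7% of the regions at single-gene ends and in 28.5% of the others. Regions near ends of several genes resembled those at single genes, with a median of 1.03, while those further inside genes had 0.879 and those outside genes 0.872. Along the gene the ratio followed the start. It was 0.920 at 1000 to 500 bp upstream, 0.992 at 500 to 250 bp, 0.999 at 250 to 100 bp, 1.05 in the last 100 bp, 1.07 and 1.08 at 0 to 100 and 100 to 250 bp downstream, 1.05 at 250 to 500 bp and 0.997 at 500 to 1000 bp. Regions at transcription ends had 0.912, and regions more than 1 kb from gene ends had 0.877.

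The shift was present at both levels of strength. Strong regions had a median ratio of 0.976 at starts and 0.843 at more than 1 kb from gene ends, and weaker regions 1.05 and 0.898. The ratio of Abcam133638 to Abcam133737 was 1.42 at single-gene ends and 1.33 elsewhere, and that to Abcam76013 was 1.42 and 1.31. The ratio of Abcam133737 to Abcam76013 was 0.998 and 0.979, and that of Millipore07-601 to Abcam133737 was 1.40 and 1.51. Of the pairs given, those that involve Abcam133638 or Millipore07-601 therefore differed more by position than Abcam133737 against Abcam76013. The ratio of Millipore07-601 to Abcam76013 was not computed. Millipore07-601 and Abcam133638 together, over the other libraries together, had a median ratio of 1.41 at single-gene ends and 1.41 elsewhere. The libraries were also ranked less alike by fold at single-gene ends. Spearman's rho between libraries over 5945 regions was 0.816 to 0.839, and 0.872 to 0.892 over the other four-antibody regions, which share the input and possibly the chromatin. Fold also spread less at single-gene ends, with Millipore07-601 quartiles of 5.73 and 10.6, against 6.35 and 13.3 further inside genes. The part of this spread in the lower rho was not tested. With 1 library per antibody, a property of the antibody and a property of its library cannot be told apart. The local background exceeded the genome-wide level in 34.4 to 35.2% of the regions at single-gene ends, in 35.8 to 37.5% of those further inside genes and in 39.6 to 40.7% of those outside genes, and its part in the ratios was not tested.

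**Figure D4:**
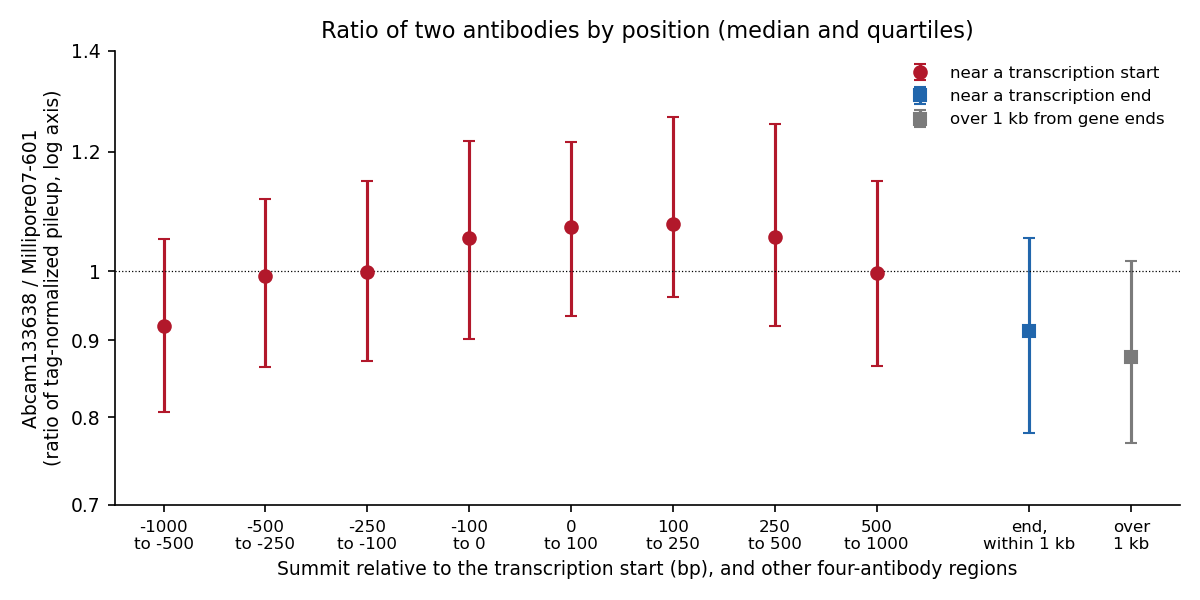
Ratio of tag-normalized pileup in Abcam133638 over Millipore07-601 (vertical log axis; points are medians, bars span the quartiles) by position of the summit relative to the transcription start in bp (red), beside regions at transcription ends (blue) and more than 1 kb from gene ends (grey). The median rose above 1 around the start, to 1.08 at 100 to 250 bp downstream, and was 0.877 far from gene ends.

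The genes that carried these regions were counted next. In the RefSeq table, 21837 protein-coding genes had at least 1 base near an end that belonged to no other gene, and could therefore receive a region. Of these, 5328 had one (24.4%) and 1123 had a strong one (5.14%). A single region was found at 4758 genes, 2 at 524, 3 at 45 and 4 at 1 gene, and 163 genes with known strand had a region at each end. The gene lists below are described by their counts beside these shares, without a test. The share of all genes includes 1110 olfactory receptor genes, of which 4 had a region. Lists were not compared at equal CpG content, although 34.7% of CpG-rich and 10.3% of CpG-poor promoters had a region. The part of CpG content in the differences between lists was not tested.

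General epithelial genes had the highest share of the 30 groups, and AT2, AT1 and YAP pathway genes were also covered often. Of 30 general epithelial genes, 24 had a region (80.0%, 61.4 to 92.3) and 13 a strong one. They included the tight junction gene Cldn7 (mean fold 19.3), the keratin gene Krt8 (17.5), the membrane serine protease gene Prss8 (17.1), the E-cadherin gene Cdh1 (12.6) and the start of Nkx2-1 itself (10.2). Of 30 AT2 genes, 21 had a region (70.0%, 50.6 to 85.3) and 11 a strong one, and of 30 AT1 genes, 15 had a region (50.0%, 31.3 to 68.7) and 4 a strong one. Of 26 genes of the YAP and TEAD pathway, which relays mechanical signals in the alveolus, 16 had a region (61.5%, 40.6 to 79.8) and 3 a strong one. All 4 groups were above the 24.4% of all genes. Among the defining AT1 markers, Hopx, Aqp5, Cav1 and Rtkn2 had a region, and Ager and Pdpn had none. Among the defining AT2 markers, Sftpc, Sftpb, Sftpa1, Lamp3 and Etv5 had a region, and Abca3 had none.

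Genes of other cell types of the lung had lower shares than AT1 and AT2 genes, and only ciliated genes stood above the 24.4% of all genes. No region was found at 28 immune genes, which allows a share of up to 12.3%. Among 25 endothelial genes, Vwf, which encodes von Willebrand factor, and Esam had one (8%), and among 27 mesenchymal genes, Plin2 and Notch3 had one (7.41%), none of them strong. Among 15 airway secretory genes there were 3 (20.0%, 4.33 to 48.1), Cckar, Scgb3a2 and Lypd2, none of them strong. Scgb1a1, the club cell marker, had no region. Ciliated genes had a region in 6 of 14 cases (42.9%, 17.7 to 71.1), an interval that overlaps that of AT1 genes and includes the share of all genes. Mcidas (16.5, 360 bp beyond its end) and Rfx3 (14.7), which encode regulators of multiciliated cells, had strong ones. Foxj1 of the same list had no region. In the thyroid list, Tshr (11.8) and Tg (6.07), which encode the thyrotropin receptor and thyroglobulin, had one among 12 genes, and in the gastrointestinal list only Gkn3 (8.14) among 25. None of the 39 Hox genes had a region, which allows up to 9.03%, and 4 of 1110 olfactory receptor genes had one (0.360%).

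Several groups of genes used by most cells were also covered often. Unfolded protein response genes had a region in 18 of 25 cases (72.0%, 50.6 to 87.9), 4 of them strong, with Calr, which encodes a chaperone of the endoplasmic reticulum (14.1), Syvn1, a ubiquitin ligase of that compartment (12.9), and Eif2ak3, the stress sensor PERK (11.0), at the top. Replication and mitosis genes had one in 14 of 25 cases (56.0%, 34.9 to 75.6) and a strong one at Bub1 alone (10.1). Cytosolic ribosomal protein genes had one in 43 of 82 cases (52.4%, 41.1 to 63.6), 7 strong. Translation initiation factors had one in 30 of 56 (53.6%), ubiquitin conjugation genes in 23 of 44 (52.3%), Rab GTPases, which direct vesicle traffic, in 29 of 59 (49.2%), proteasome genes in 22 of 48 (45.8%) and splicing factors in 21 of 47 (44.7%). Zinc finger genes named Zfp had one in 168 of 367 cases (45.8%, 40.6 to 51.0), 31 strong. How reads that fit several near-identical copies were placed is not stated, so values at such families are uncertain. Apart from the unfolded protein response genes, these groups had shares of 44.7 to 56.0%, beside 50.0% in AT1 genes. Other groups used by most cells, described below, had lower shares. These were 37.8% in mitochondrial ribosomal protein genes, 34.2% in complex I genes and 30.0% in RNA polymerase II and general factor genes. The strong share was 36.7% in AT2 genes, 43.3% in epithelial genes and 13.3% in AT1 genes. It was 16.0% in unfolded protein response genes, 11.4% in ubiquitin conjugation genes, 10.2% in Rab GTPases, 8.93% in translation initiation factors, 8.54% in ribosomal protein genes, 8.45% in Zfp genes, 6.25% in proteasome genes, 4.26% in splicing factors and 4% in replication and mitosis genes. The interval of the AT1 share (3.76 to 30.7) overlapped those of the unfolded protein response (4.54 to 36.1) and the ribosomal share (3.50 to 16.8).

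Most of the other families had shares near or below the 24.4% of all genes. Solute carriers had a region in 95 of 375 cases (25.3%, 21.0 to 30.1), and RNA polymerase II and general factor genes in 9 of 30 (30.0%). Claudins had one in 7 of 23 (30.4%), keratins in 5 of 49 (10.2%), cytochrome P450 genes in 8 of 92 (8.70%) and collagens in 3 of 44 (6.82%, Col16a1, Col4a5 and Col23a1). Mitochondrial ribosomal protein genes were above it, with 28 of 74 (37.8%, 26.8 to 49.9), and complex I genes of the respiratory chain had one in 13 of 38 (34.2%, 19.6 to 51.4). Some genes had only four-antibody regions near ends of several genes at once, which the rule leaves out. These numbered 21 of 74 mitochondrial ribosomal, 13 of 82 cytosolic ribosomal, 13 of 38 complex I and 10 of 47 splicing factor genes. There were 8 of 48 proteasome and 8 of 30 RNA polymerase II and general factor genes. Lower counts were 7 of 56 translation initiation, 7 of 59 Rab, 4 of 25 unfolded protein response, 3 of 25 replication and mitosis and 1 of 44 ubiquitin conjugation genes. The AT1 list had 3 of 30, the AT2 list 2 of 30 and the YAP and TEAD list 3 of 26.

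**Figure D5:**
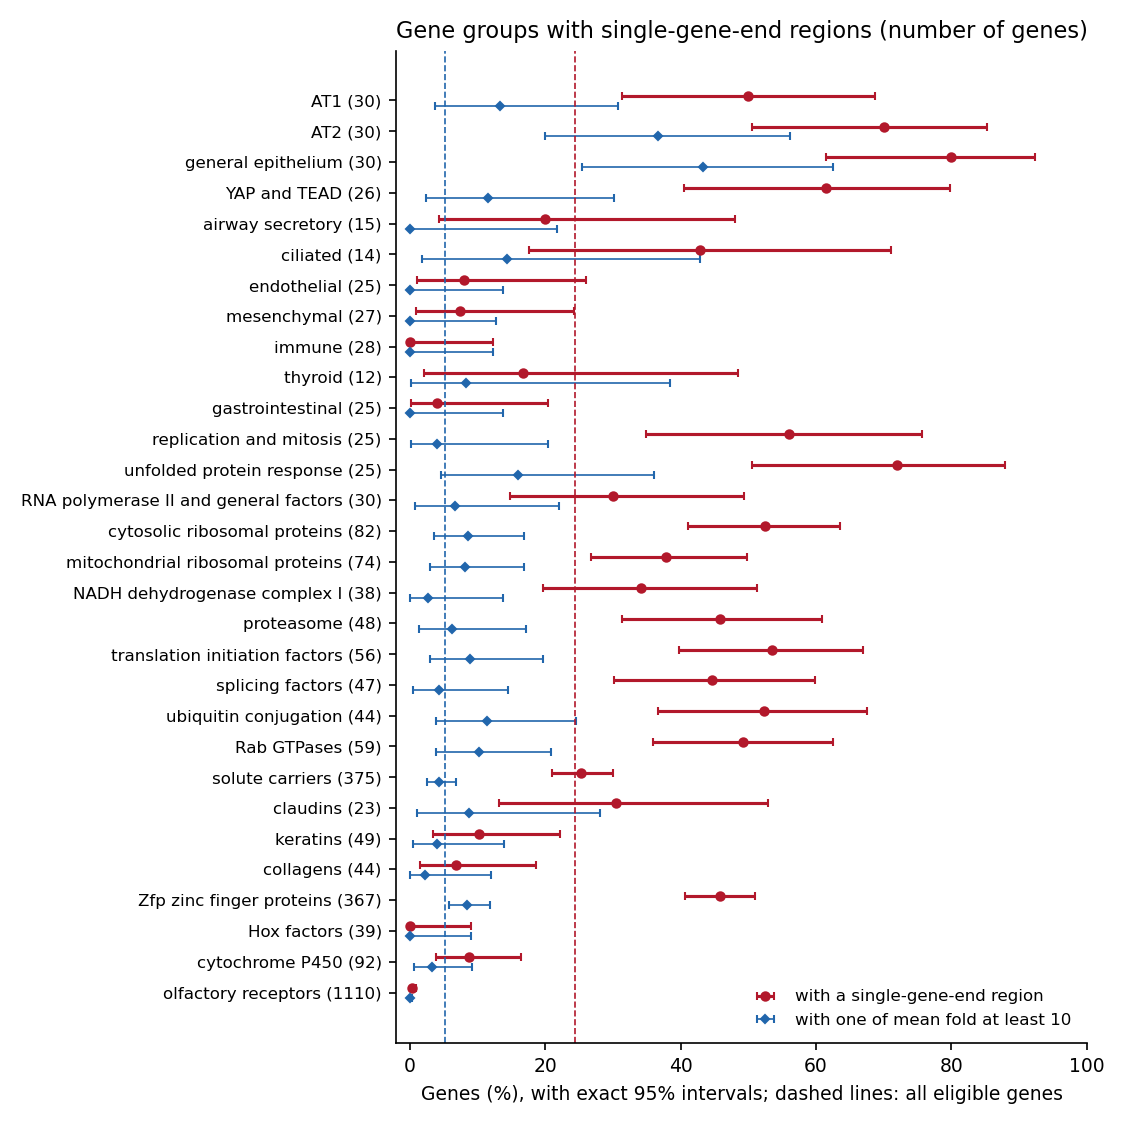
Percent of genes with a region at a single-gene end (red) and with one of mean fold at least 10 (blue) for 30 gene groups (vertical axis, number of eligible genes in brackets), with exact 95% intervals. Dashed lines mark all eligible genes at 24.4 and 5.14%, and epithelial, AT2 and unfolded protein response genes lie farthest to the right in red, immune and Hox genes at 0.

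The highest fold belonged to the promoter of Cxcl15, which encodes a chemokine of the lung epithelium. Its region (chromosome 5, 90794021 to 90794916, summit 134 bp before the start) had folds of 34.4 in Abcam133737, 47.8 in Millipore07-601, 38.4 in Abcam76013 and 44.6 in Abcam133638. Itgb4, the integrin beta 4 gene of hemidesmosomes, followed with 32.5, 43.6, 30.4 and 41.0 in the same libraries, 245 bp outside the gene (chromosome 11, 115974251 to 115974802, strand not given). In both, all 4 libraries exceeded 30. Tmem243 had a mean of 35.9 at 806 bp inside its start. Sdhaf1, an assembly factor of succinate dehydrogenase, had folds of 29.8, 44.5, 29.2 and 34.8, 165 bp before its start. Igfbp6, which binds insulin-like growth factors, had a mean of 34.5, and Egfr, the epidermal growth factor receptor gene, had 25.9, 39.1, 31.3 and 36.2, 566 bp upstream of its start (chromosome 11, 16751250 to 16751919). Wdr61 (mean 33.6) and Adamtsl1 (33.1) were among the 10 highest without a known strand.

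The strongest regions at transcription ends reached similar values. Copz1, a subunit of the COPI vesicle coat, had folds of 27.8 in Abcam133737, 44.4 in Millipore07-601, 28.8 in Abcam76013 and 37.7 in Abcam133638 at 773 bp before its end, 26204 bp from its start (chromosome 15, 103298649 to 103299717). Gas1, a Hedgehog co-receptor gene, had 28.8, 37.9, 30.4 and 35.6 at 616 bp beyond its end. Neither summit lay within 1 kb of the start of its own gene. Neurl4 (mean 31.9), Ankrd40 (30.8) and H2-M5 (30.5), a class Ib histocompatibility gene, completed the 5 highest. The highest region of the AT1 list was also of this kind: Aqp5, the water channel of AT1 cells, had 17.9, 30.9, 19.1 and 28.5 at 309 bp beyond its end (chromosome 15, 99594795 to 99595666). The highest regions of the ribosomal protein and RNA polymerase II lists, at Rps19 (mean 29.5, 554 bp beyond the end) and Polr2e (23.3, 89 bp beyond), lay at ends as well.

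Strong regions stood near 3 of the surfactant protein genes. Sftpb, the surfactant protein B gene, had folds of 24.7 in Abcam133737, 31.9 in Millipore07-601, 22.3 in Abcam76013 and 29.3 in Abcam133638, 313 bp before the start (chromosome 6, 72303508 to 72305213). Sftpc had 17.9, 19.8, 16.2 and 21.7 at 183 bp outside the gene (strand not given), and Sftpa1, whose sequence with a TTAAGTG word is printed above, had 15.2, 20.3, 14.5 and 20.5 at 142 bp before the start. Muc1, an epithelial mucin gene, had a mean of 22.6 at 696 bp upstream. Sftpd was lower, with a mean of 7.44.

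AT1 genes were led, after Aqp5, by Cav1, the caveolin-1 gene, with folds of 16.9 in Abcam133737, 21.2 in Millipore07-601, 16.0 in Abcam76013 and 16.8 in Abcam133638 at 231 bp inside its start. Scnn1g, the gamma subunit of the epithelial sodium channel, had 12.6, 17.6, 10.1 and 16.0 at 11 bp before its start and 10.9, 17.6, 9.95 and 15.9 at 294 bp before its end. Gprc5a (mean 10.9) and Timp3 (8.13), an inhibitor of metalloproteinases, followed, while Hopx had 5.38. In the YAP and TEAD list, Nf2, an upstream tumour suppressor of the pathway, had 17.3, 24.1, 17.3 and 24.1, 127 bp before the start and with a CACTCAA word at 14 bp from the summit. Amotl2, an angiomotin family member that binds YAP, had a mean of 18.7, Tead1 had 10.9, Wwtr1, which encodes TAZ, 7.37, and Yap1 5.40. Other genes of the list whose products restrain YAP, Lats1, Lats2, Sav1, Mob1a, Amot and Amotl1, had no region at a single-gene end. The same held for Tead2, Tead3, Axl and Ankrd1, so genes without a region were not only those that restrain YAP. Of the 26 genes of the list, 3 had only four-antibody regions near ends of several genes. Regions further inside genes were not counted.

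Several regions could stand at 1 gene. Csf2, which encodes the cytokine GM-CSF, had 4, the most of any gene, with mean folds of 18.4 at 64 bp before the start, 9.78 at 912 bp before it, 5.08 at 684 bp inside the start and 6.28 at 474 bp before the end. The regions at 64 and 912 bp before the start had similar pileups, 73 to 120 and 70 to 114 tags. Their local backgrounds were 4.04 to 4.37 and 8.08 to 8.74 tags, so their folds differ mainly through the background. Blcap had 3, with means of 21.8, 13.3 and 6.90, and Dbnl, an actin-binding adaptor gene, had 3, with 21.7, 10.3 and 6.32. Among genes with a region at each end, Xpo1, the nuclear export receptor gene, had 22.1 at its end and 18.3 at its start, and Rab6b had 16.0 at its end and 13.0 at its start. These regions share a gene and are not independent of one another.

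A few regions departed from the usual balance of the libraries. At Hdgf, a growth factor gene, the pileup was 30 tags in Abcam133737, 40 in Millipore07-601, 29 in Abcam76013 and 131 in Abcam133638, so that Abcam133638 alone was high. The ratio of the libraries with longer peak lists (Millipore07-601 and Abcam133638) to the others was 3.04 there, the highest of all, against a median of 1.41. Clu (2.44) and Fut8 (2.34) came next, and Clcn3 (0.816), Il1r1 (0.820) and Ppdpf (0.828) were lowest. At Clcn3 the 4 summits were spread over 321 bp.

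The weakest regions had raised local background. Sfi1 had folds of 2.30 in Abcam133737, 1.79 in Millipore07-601, 2.69 in Abcam76013 and 1.75 in Abcam133638 on a local background of 35.8 to 50.4 tags, where the genome-wide level was 3.64 to 3.93. Lars2 (mean fold 2.50) stood on 44.4 to 52.4 tags and A530032D15Rik (2.58) on 16.2 to 17.4. The pileups of these regions, 73 to 102 tags at Sfi1 and 102 to 145 at Lars2, were themselves high. Fold is a ratio of the pileup to the local background, so such pileups on such a background give a low fold by definition. Why the background was raised there was not tested. At the limit of 1 kb, 1700016H13Rik (mean fold 18.1, 999 bp) and 0610010F05Rik (8.43, 1000 bp) were the last regions inside, and those near Wnt7b (11.7) and Hspg2 (8.59), both at 1001 bp, were the first outside.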

How the data were processed

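NKX2-1 ChIP-seq peak tables of 4 antibody libraries were analysed; the input enters only through the authors' peak calling. The submitters' processing notes name the mm10 build and list MACS2, Bowtie, Trimmomatic, SAMtools, FastQC and deepTools. Peaks were called by the authors with MACS 2.1.2, per the file headers, one antibody library at a time versus the input, at a q-value limit of 0.05, with an effective genome of 1.87 Gb, with 1 tag kept per position and with the smaller library scaled up. Per the file headers, the deposited tables give for each peak its pileup signal in tags, its fold enrichment (a ratio to the local background), and the −log10 of its p-value and of its q-value. For ratios between libraries the pileup was divided by filtered tags, and the local background was recovered from pileup and fold with a pseudocount of 1.

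Peaks were merged and classed as described above, with Python 3.11.15, pandas 2.3.3, numpy 2.4.6 and scipy 1.17.1, and the merging was tested on simulated data. Strand came from the RefSeq promoter windows (250 bases before to 50 after 1 start per gene), which matched 17492 of 21887 protein-coding genes. Distances run to the outermost gene coordinates, and the window starts elsewhere for some genes, such as Cldn7, Amotl2 and Zfp869. Of 17492 windows, 10583 began at the outermost start and 13537 within 100 bp of it. All results by distance from the start carry this limit. The summit at Cldn7, for example, lay 574 bp inside the outermost start but 68 bp from another annotated start. Motifs were searched on both strands. NKX2 words of 7 bases overlap the 8-base words CACTTGAG and CACTCAAG used as an alternative. The GC comparison reweights all promoters to the GC content of the bound set.

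Members and gene lists (14 lists and 16 families of gene symbols) were chosen with earlier results of these data known. The named genes are the 10 highest regions, the 5 highest at transcription ends, the genes with most regions or with both ends bound, the highest of each list (5 for AT1 and AT2, otherwise 3, not all printed), the extremes of the library ratio, the regions at the distance limit and the lowest 3. Other genes, such as Hopx, Cdh1, Nkx2-1, Sftpd, Wwtr1 and Yap1, were picked with their values in view. Alternatives changed the distance limit, the q-value and fold limits, the summit rule, the gene set, the antibodies required and the motif.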

Additional observations from a re-analysis of the deposited data

How the results depend on the processing

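The number of regions, 5945, was 3056 with a fold of at least 5 in every library and 6030 to 6799 when each antibody was left out in turn. The share at transcription starts was 93.6% within 500 bp, 85.5% within 2 kb and 88.5% with all summits within 100 bp. The share of eligible genes was 21.8% within 500 bp, 26.8% within 2 kb, 20.0% at a −log10 q of at least 5, 13.1% at a fold of at least 5, 20.25% with summits within 100 bp, 26.0% without predicted genes, and 24.4 to 27.3% with each antibody left out. The median of the mean fold, 6.76, was 7.44 at the stricter q, 9.0 at a fold of at least 5, 7.10 with summits within 100 bp, and 6.26 to 6.70 with each antibody left out. AT1 genes with a region numbered 8 at a fold of at least 5, with 15 to 17 for AT1 and 21 to 22 for AT2 when an antibody was left out. The 8-base motif gave 2.80% of bound and 2.44% of all promoters, summits inside the window gave 9.63% of bound promoters, and all promoters at the GC content of the bound set gave 6.06%. Those limits remove weak or scattered regions by construction. No paired analysis was possible because each antibody has 1 library. The input is shallow, so most local backgrounds rest on a genome-wide level, and weak regions may be missed at this depth.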

Other observations

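On chromosome X lay 70 of the 5945 regions at single-gene ends (1.18%) and 304 of the other 25661 four-antibody regions (1.18%). The summit was taken from Abcam133638 in 58.0% of the regions at single-gene ends, from Millipore07-601 in 37.2%, from Abcam76013 in 2.61% and from Abcam133737 in 2.17%. The ratio of Abcam133638 to Millipore07-601 was 1.05 at CpG-rich bound promoters and 0.993 at CpG-poor ones, and over 5 groups of increasing fold it was 1.09, 1.10, 1.06, 1.05 and 1.00. Promoters with an NKX2 word had a ratio of 1.00, and those without had 1.04.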
